A study of Mus musculus with 2 samples.

Results

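The Cd209a and Clec10a dendritic cells were 243 of the 15259 kept cells of 2 single-cell libraries, 117 in the wt library and 126 in the library labelled Lcn2-ko. They were chosen by measured values. A kept cell had at least 200 detected genes and at most 20% mitochondrial UMIs (unique molecular identifiers, which count captured RNA molecules). A member then held at least 2 UMIs summed over the C-type lectin genes Cd209a, Clec10a and Mgl2, and at least 20 UMIs over the MHC class II genes Cd74, H2-Aa and H2-Ab1. It held no UMI of Xcr1, Clec9a or Ccr7, at most 2 of C1qa, C1qb and C1qc, and at most 1 of Cd3e, Cd3g and Cd3d. Those genes therefore describe the choice and are no finding.

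Both libraries came from live CD45+ cells sorted from enzyme-digested tumours of MB49, a mouse bladder cancer line, and were read on the BD Rhapsody platform. The tumours grew in marrow chimeras: lethally irradiated female hosts had been given male marrow, wt for one library and Lcn2-ko for the other. Lcn2 encodes lipocalin 2, a secreted protein that binds bacterial siderophores and so withholds iron. The design asked about Lcn2 in neutrophils, and the dendritic cells were sorted together with all other CD45+ cells. The label of each library gives the sex as female, while 1 sentence of the protocol speaks of male and female mice. Cells of the host that survive irradiation would still carry Lcn2, and a marrow knockout is not limited to 1 cell type. There was 1 library per genotype label, and the number of mice or tumours behind each is not given in the sources used here. No test was therefore possible: every difference below is between 2 libraries, and the 95% intervals cover counting error only.

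Conventional dendritic cells take up antigen and present it to T cells on MHC class II. The type 1 lineage carries Xcr1 and Clec9a and is known for presenting the antigens of dead cells to CD8 T cells. The type 2 lineage, which CD209a and the macrophage galactose lectins CD301a (Clec10a) and CD301b (Mgl2) mark in mice, is known for priming CD4 T cells, and in inflamed tissue and tumours its markers overlap with those of dendritic cells that arise from monocytes. Dendritic cells of either lineage that have matured carry Ccr7, the receptor that guides them to lymph nodes.

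Each library held about the same material: 42069099 UMIs for wt and 40959725 for the library labelled Lcn2-ko. The 117 wt members had a median of 5672 UMIs and 2075 genes, and the 126 members of the library labelled Lcn2-ko had medians of 4630.5 UMIs and 1834.5 genes. Member UMIs summed to 713260 and 656834, and a level below is a gene's sum per 1000000 UMIs of the same cells (CPM). The libraries shared 4 cell barcodes, and 0 of them were members. At least 1 UMI of Ptprc, the gene of the CD45 sort marker, was found in 89.7% and 86.5% of members. The label of the knockout could not be checked by its gene. Lcn2 gave 1 UMI in wt members and 3 in the others, and over all kept cells it gave 704 and 633 UMIs (16.9 and 15.6 CPM). The log2 ratio over all kept cells was -0.11 (-0.27 to 0.04), so Lcn2 RNA was not lower beyond counting error. A Ptprc UMI was found in 5233 of 7712 and 5258 of 7547 kept cells. Kept cells that did not come from the marrow would carry Lcn2 under either label, and their part was not tested. In the comparison gates described below, Lcn2 gave 3 and 2 UMIs in Xcr1 and Clec9a dendritic cells. It gave 3 and 24 UMIs in Ccr7 dendritic cells (log2 2.77, 1.05 to 5.15). In Ly6c2 and Ccr2 monocytes it gave 9 and 14 UMIs (74.5 and 77.7 CPM), and in T cells 15 and 37 (log2 1.11, 0.21 to 2.08). Which exons were removed is not given in the sources used here, and a tag outside them would check nothing. The library is therefore called "the library labelled Lcn2-ko" throughout, and each direction below is drawn from that label.

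For comparison, 3 other gates were drawn from the same kept cells: Xcr1 and Clec9a dendritic cells (236 and 103 cells, wt first, here and below), Ccr7 dendritic cells (155 and 175) and Ly6c2 and Ccr2 monocytes (34 and 47). A gate of T cells (2465 and 2699) served to show how much lectin RNA was found in cells that should lack it. Its cells held at least 3 UMIs of Cd3e, Cd3g and Cd3d, at most 19 of Cd74, H2-Aa and H2-Ab1, and no Lyz2 UMI. Those limits leave out T cells with more free or attached myeloid RNA, so the lectin level found there can be too low. By how much was not tested. The gates exclude one another through the rule genes, so differences in those genes, and in any gene that goes with them, are a description without a test.

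Members were 1.52% of kept wt cells (95% Clopper-Pearson interval 1.26 to 1.82) and 1.67% of kept cells of the library labelled Lcn2-ko (1.39 to 1.98). The difference was 0.152 percentage points (Newcombe interval -0.247 to 0.554), so no difference in their share of all cells was detectable at this depth. Among the 3 dendritic gates they were 117 of 508 cells (23.0%) and 126 of 404 cells (31.2%), higher by 8.16 points (2.36 to 14). The Xcr1 and Clec9a gate moved the other way, from 46.5% to 25.5% of the same denominator. The members' larger share of dendritic cells thus stood beside an almost equal share of all cells.

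The lectins that chose the members were unevenly spread over them. Cd209a, on chromosome 8 (3743397 to 3748984, minus strand, mm10), encodes a relative of human DC-SIGN, and it gave 357 UMIs in 61.5% of wt members and 412 UMIs in 64.3% of the others, or 501 and 627 CPM. Clec10a (chromosome 11, 70156197 to 70170834, plus strand) encodes a receptor for galactose-type sugars. It gave 134 UMIs in 39.3% and 281 UMIs in 54.0% of members, or 188 and 428 CPM. Mgl2, its neighbour on the same strand (70130329 to 70137550), gave 826 UMIs in 83.8% and 712 UMIs in 68.3%, or 1158 and 1084 CPM. Clec10a and Mgl2 are close copies of each other, and how the counting split reads between them is uncertain. The sum of the 3 ran from 2 to 44 UMIs per cell in wt (median 9) and from 2 to 43 in the library labelled Lcn2-ko (median 8.5).

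After each cell was thinned to 2000 UMIs, Cd209a was found in 46.2% and 49.2% of members against 0.301% and 0.0875% of T cells. Clec10a was found in 24.8% and 41% of members, and Mgl2 in 70.1% and 55.7%, against 1.90% and 2.01% of T cells for Mgl2. T cells had median depths of 2788 and 2879 UMIs. The lectin limit of the rule fixed the direction of that difference.

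Cells just inside the limit held more Kmo, H2-DMb2 and Flt3 than cells just outside it. Those with exactly 2 lectin UMIs (13 and 17 cells) held Kmo at 316 and 112 CPM, H2-DMb2 at 849 and 392, and Flt3 at 57.5 and 44.8. Those with 1 lectin UMI (38 and 42 cells), which met the other limits, held Kmo at 57.8 and 25.1 CPM, H2-DMb2 at 254 and 173, and Flt3 at 12.8 and 11.2. Ccl17 in the cells with exactly 2 lectin UMIs stood at 331 and 22.4 CPM, against 443 and 292 in all members, and Lyz2 at 288 and 616, against 163 and 347.

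H2-DMb2 and Kmo marked the members without being part of the rule's sums. H2-DMb2 encodes a beta chain of H2-DM, which loads peptides onto MHC class II, and the members held it at 1056 and 1006 CPM. The Xcr1 gate held it at 259 and 265 CPM, the Ccr7 gate at 524 and 447, monocytes at 24.8 and 22.2, and T cells at 7.31 and 8.0. H2-DMb1, the copy beside it, stood in members at 282 and 381 CPM. Kmo, the hydroxylase of the kynurenine pathway of tryptophan breakdown (chromosome 1, 175620381 to 175662116, plus strand), stood at 222 and 212 CPM in members, 131 and 125 in the Xcr1 gate and 96.4 and 63.6 in the Ccr7 gate. Both genes were thus highest in members in either library, with Kmo at 1.46 and 0.534 CPM in T cells. Because the part of H2-DMb2 reads that come from H2-DMb1 is unknown, the split between them is uncertain.

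The start regions of the H2-DM beta genes are shown because they differ in level and share a class II promoter letter string. They are RefSeq sequences of GRCm38.p6 that run from 250 bases before to 50 after the RefSeq start, at chr17:34144999-34145298 for H2-DMb2 and chr17:34152941-34153240 for H2-DMb1, both on the plus strand. H2-DMb2 spans 34143307 to 34151555 in GENCODE, so the RefSeq start lies inside that wider gene. Capitals mark the Y box letters GATTGG, searched with CCAATC on the other strand. The letters occurred in all 7 class II genes with an entry, of 9 searched, and in 16.1% of 32851 promoters (5292). A listed gene counted if any of its entries matched, while each promoter entry counted by itself, so the shares are not on the same basis. A match is a description of letters, not of a bound site.
H2-DMb2: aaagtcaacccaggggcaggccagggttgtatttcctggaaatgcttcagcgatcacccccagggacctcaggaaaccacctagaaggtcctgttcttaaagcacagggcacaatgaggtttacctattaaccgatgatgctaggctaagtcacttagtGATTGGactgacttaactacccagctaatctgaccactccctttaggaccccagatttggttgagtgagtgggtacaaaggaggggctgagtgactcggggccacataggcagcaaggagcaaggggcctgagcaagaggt
H2-DMb1: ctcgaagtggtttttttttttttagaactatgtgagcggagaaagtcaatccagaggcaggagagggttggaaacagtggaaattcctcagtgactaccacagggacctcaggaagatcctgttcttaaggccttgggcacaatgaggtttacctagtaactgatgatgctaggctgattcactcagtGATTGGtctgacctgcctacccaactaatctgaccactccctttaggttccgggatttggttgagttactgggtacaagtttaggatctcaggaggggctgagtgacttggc

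**Figure D1:**
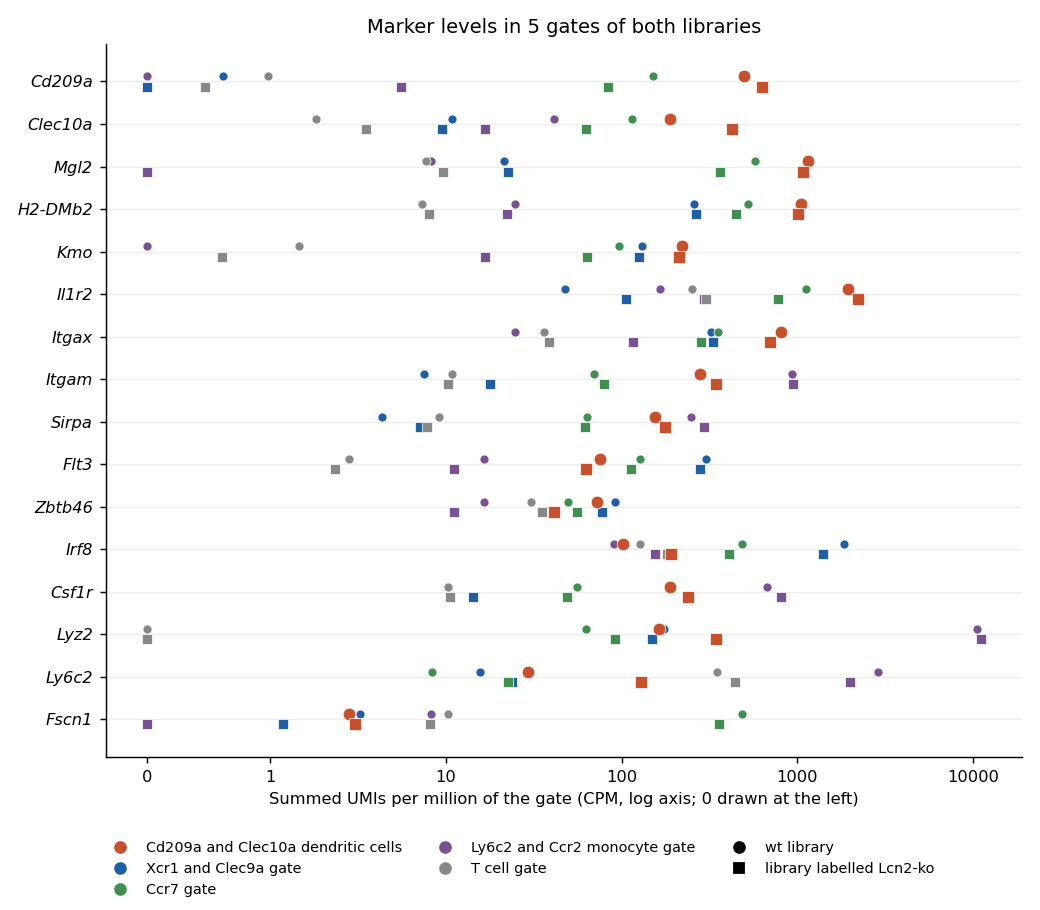
Levels of 16 marker genes (rows) in the members and 4 other gates, in CPM of the gate on a log axis with 0 at the left; circles are the wt library and squares the library labelled Lcn2-ko. The members (red) are rightmost for Cd209a, Clec10a, Mgl2, H2-DMb2, Kmo, Il1r2 and Itgax, and hold Itgam and Sirpa between the monocytes and the other dendritic gates.

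Dendritic cell genes were present, at lower levels than in the Xcr1 gate. Flt3, the receptor for the growth factor of conventional dendritic cells, stood at 75.7 and 62.4 CPM in members, 301 and 281 in the Xcr1 gate, 127 and 114 in the Ccr7 gate and 16.5 and 11.1 in monocytes. Zbtb46, a factor of conventional dendritic cells, stood at 72.9 and 41.1 CPM in members and 92.1 and 77.4 in the Xcr1 gate. Itgax, which encodes CD11c, stood at 806 and 703 CPM, above 322 and 330 in the Xcr1 gate and 24.8 and 116 in monocytes. Irf8, the factor of the type 1 lineage, stood at 102 and 192 CPM in members against 1847 and 1394 in the Xcr1 gate. Irf4, known for its part in the type 2 lineage, stood at 65.9 and 71.6 CPM against 1.08 and 2.38. Flt3 and Itgax therefore went with the label of dendritic cells in both libraries, with Flt3 several times its level in monocytes. Zbtb46 and Irf4 were closer to T cells. After thinning, Zbtb46 was found in 12.8% and 7.38% of members and in 5.56% and 6.43% of T cells. Irf4 was found in 13.7% and 12.3% of members and in 8.77% and 6.91% of T cells.

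A wider set of genes set the members apart from all other kept cells, and the ratios were close in both libraries. Ffar2, a receptor for short-chain fatty acids, had the highest ratio, 179 against 11.6 CPM in wt and 171 against 11.1 in the library labelled Lcn2-ko (log2 3.95 in each). Napsa, which encodes the protease napsin A, stood at 359 against 35.1 and 338 against 33.4 CPM. Cd300a, an inhibitory receptor, stood at 299 and 318 CPM in members (log2 3.35 and 3.32). Cdh1, the adhesion protein E-cadherin, stood at 491 and 472 CPM (log2 3.28 and 3.18). Il1r2, the decoy receptor of interleukin 1, was among the most abundant at 1938 and 2208 CPM (log2 2.73 and 2.84). The other named genes were Cfp (properdin of the complement system), Ms4a4c, Krt80, Adam23, Rtn1, Fgr, Dcstamp and Olfm1, with log2 ratios from 2.44 to 3.25 over the libraries. Il1r2 is also a gene of neutrophils, and S100a8, which neutrophils hold in abundance, stood at 40.7 and 45.7 CPM in members.

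Against the Xcr1 and Clec9a gate, 167 of 1859 genes (8.98%) were at least 2-fold higher in members in both libraries and 108 (5.81%) were at least 2-fold lower. Cybb, the catalytic subunit of the phagocyte NADPH oxidase, stood at 453 against 4.85 CPM in wt and at 469 against 4.76 in the library labelled Lcn2-ko. Mmp12, macrophage elastase, stood at 594 against 17.2 and at 373 against 10.7 CPM. Clec4n (dectin 2), Ccl24 (eotaxin 2), Pilra and Cdh1 completed the highest ratios. Ccl24 was found in 9 and 13 members, and 1 cell in each library held 61 of 96 and 55 of 133 of its UMIs. Lower in members were Cadm1, an adhesion protein of the type 1 lineage, at 8.41 against 682 and 9.13 against 574 CPM, and Il12b, the shared chain of interleukins 12 and 23, at 1.40 against 272 and 7.61 against 163 CPM. Tlr3 (a receptor for double-stranded RNA), Dnase1l3, Gpr141b and Gcsam were also among the lowest ratios, with Gcsam at 0 UMIs in members of both libraries, which allows up to 3 UMIs. By list, 11 of 12 measured genes of type 1 dendritic cells were lower in members and 0 higher. Of 11 measured genes of type 2 dendritic cells, 7 were higher (Sirpa, Itgam, Zeb2, Tnip3, Ccl17, Cd300a and Mmp12) and 1 lower (Clec12a).

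The set against the Ccr7 gate was smaller on the higher side, with 79 of 1894 genes (4.17%) at least 2-fold higher in both libraries and 146 (7.71%) lower. Fscn1, the actin bundler fascin of mature dendritic cells, stood at 2.80 and 3.04 CPM in members against 484 and 359. Il12b was again low, at 1.40 and 7.61 CPM against 481 and 343. Cacnb3, Cadm1, Ddr2 and Serpinb6b made up the other lowest ratios. Of 16 measured genes of mature dendritic cells, 8 were lower and 0 higher. Ccl22, a chemokine for regulatory T cells and one of those 8, stood at 101 and 41.1 CPM in members. Higher in members were Cdh1 (491 and 472 against 111 and 89.3 CPM), Itgam, the gene of CD11b (279 and 346 against 70.1 and 79.7), Ms4a6c, Ccl24, Pilra and Cd300a. The rule removed every cell with a Ccr7 UMI, so a low level of genes that go with Ccr7 is part of the choice.

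Against monocytes, 174 of 1856 genes (9.38%) were at least 2-fold higher and 243 (13.1%) lower in both libraries. Plet1 stood at 2503 and 1588 CPM in members against 24.8 and 16.6, and Ccl17, a ligand of the receptor CCR4, at 443 and 292 against 8.27 and 5.55. Actn1, the cytoskeletal alpha-actinin, stood at 1325 and 1171 CPM against 66.2 and 49.9. Tbc1d4 and Dapk1 were the other highest ratios outside the rule genes and H2-DMb2. Haptoglobin (Hp) gave 0 UMIs in members of both libraries, which allows up to 3, and stood at 538 and 416 CPM in monocytes. Lysozyme (Lyz2) stood at 163 and 347 CPM in members against 10555 and 11100.1, and Thbs1 at 247 and 405 against 7346 and 9780. F13a1, Chil3 and Slpi were also low. Of 15 measured monocyte genes, 13 were lower in members and 0 higher, as were 7 of 9 cytokines. The monocyte gate held 34 and 47 cells, and Ly6c2, Ccr2 and Lyz2 chose it.

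Monocyte genes nevertheless exceeded the levels of the other dendritic gates. Of 8 measured against the Xcr1 gate, 5 were higher (Cd14, Plac8, Ms4a4c, Fcgr3 and Csf1r) and 1 lower (Nr4a1), and of 8 against the Ccr7 gate 5 were higher (Plac8, Ms4a4c, Lyz2, Fcgr3 and Csf1r) and 0 lower. Csf1r, the receptor of macrophage colony-stimulating factor, stood at 189 and 239 CPM in members against 10.2 and 14.3 in the Xcr1 gate and 670 and 804 in monocytes. Csf1r, Fcgr3 and Plac8 in members lay above the Xcr1 and Ccr7 gates and below monocytes in both libraries. Of 13 measured class II processing genes, 6 were higher than in monocytes (H2-Eb1, H2-DMa, H2-DMb2, H2-Ob, Ciita and Cst3) and 2 lower (Ctsb and Lgmn). The rule asked members for class II UMIs and the monocyte gate did not. A higher level of genes that go with class II is therefore part of the choice. H2-Eb1, a class II beta chain outside the rule, stood at 7230 and 6507 CPM in members.

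The products that members could offer to other cells were mixed. Il1b, for interleukin 1 beta, stood at 4276 and 4719.6 CPM, and 4 of 7 measured cytokines (Il1b, Il1rn, Osm and Vegfa) were higher than in the Xcr1 gate, with Il12b lower. Of 10 measured chemokines, 6 were higher than in that gate (Ccl3, Ccl6, Ccl17, Ccl24, Cxcl2 and Cxcl10) and 0 lower. The costimulatory genes Cd86 (287 and 259 CPM), Cd80 (226 and 288) and Cd40 (57.5 and 38.1) were detected in both libraries. Against the Ccr7 gate, 0 of 8 measured costimulation and checkpoint genes were lower and 1 (Cd48) was higher.

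Members differed among themselves in which lectin they held. In thinned cells, Mgl2 alone was found in 34.2% and 25.4% of members, Cd209a with Mgl2 in 24.8% and 11.5%, and Cd209a alone in 8.55% and 14.8%. Clec10a alone was found in 8.55% and 9.84%, and all 3 lectins in 7.69% and 10.7%. Because the rule asks for a sum, a cell without one lectin must hold another, so the lectins trade off by construction.

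Cells with Cd209a and no Mgl2 UMI after thinning (16 and 33 cells) were set beside cells with Mgl2 and no Cd209a UMI (44 and 41). The levels below use full counts. In these, the Cd209a side still held 16 and 12 Mgl2 UMIs, and the Mgl2 side 27 and 39 Cd209a UMIs. In both libraries, 20 of 1789 genes (1.12%) were at least 2-fold higher on the Cd209a side and 22 (1.23%) lower, counts that include the genes that made the classes. Plac8, a gene that circulating monocytes hold in abundance, stood at 1543 against 558 CPM in wt and 1977 against 967 in the library labelled Lcn2-ko. Ms4a4c stood at 487 against 170 and 552 against 204 CPM. The interferon-inducible genes Mndal (log2 1.56 and 2.03) and Sp100 (1.07 and 1.45) were higher too. Of 9 measured monocyte genes, 2 were higher on the Cd209a side and 0 lower.

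Ccl17 and Ccl24 were higher on the Mgl2 side. Ccl17 stood at 71.2 CPM in cells with Cd209a alone of the pair and 445 in cells with Mgl2 alone in wt, while in the other library it stood at 136 and 469.8 CPM. Ccl24 gave 0 UMIs, which allows up to 3, against 92 UMIs (325 CPM) in wt, and 80.1 against 450.2 CPM in the other library. Dcstamp (log2 -2.23 and -2.52), Mmp12 (-1.94 and -1.67) and Hmox1, for heme oxygenase 1 (-1.30 and -3.01), were also lower on the Cd209a side. Of 12 measured chemokines, 3 were lower there and 0 higher, the third being Cxcl1 (0 against 113 CPM in wt, 72.1 against 278 in the other library). Ccl22 went the other way in wt, at 178 CPM on the Cd209a side and 60.1 on the Mgl2 side, and stood at 24.02 and 62.6 in the other library. Col1a1, a collagen gene of stromal and tumour cells, also stood apart, at 332 against 759 and 56.0 against 693 CPM. The part of free or attached RNA in these differences was not tested. The Cd209a side also had fewer UMIs per cell, with medians of 3869 and 3495 against 5905.5 and 5599.

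**Figure D2:**
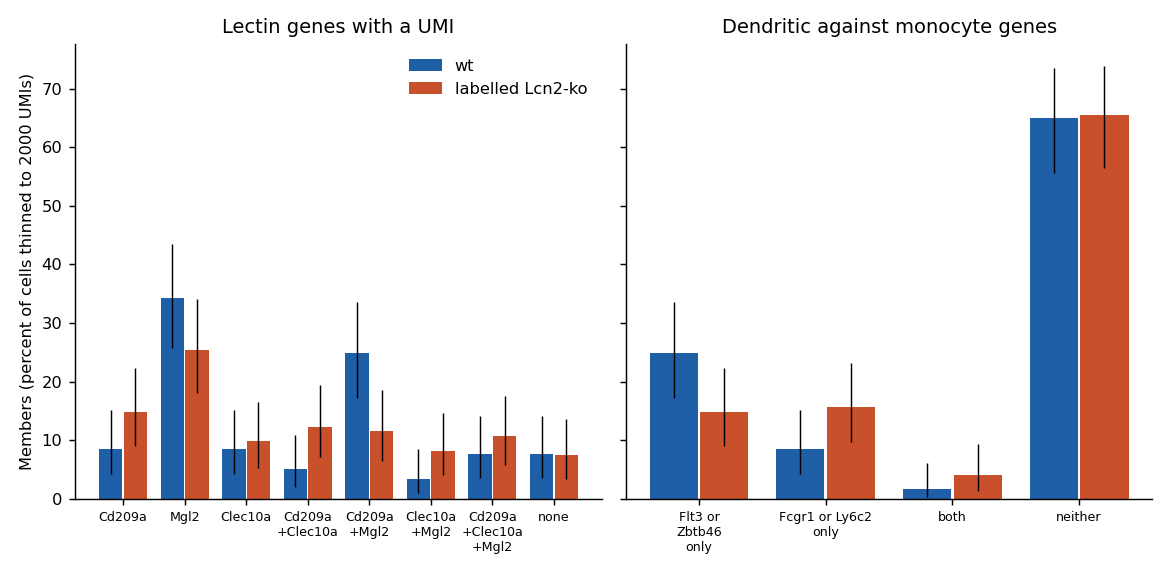
Members by class, in percent of cells thinned to 2000 UMIs, with 95% Clopper-Pearson intervals as lines; the left panel splits them by lectins with a UMI and the right panel by dendritic (Flt3, Zbtb46) against monocyte genes (Fcgr1, Ly6c2). Mgl2 alone was the most frequent lectin class in both libraries (34.2% and 25.4%), and most members held no UMI of either gene group (65.0% and 65.6%).

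A second split set Flt3 and Zbtb46 against Fcgr1 and Ly6c2, genes known from monocytes and macrophages. After thinning, 29 of 117 wt members (24.8%, 17.3 to 33.6) held only the dendritic genes, as did 18 of 122 in the library labelled Lcn2-ko (14.8%, 8.98 to 22.3). Only the monocyte genes were found in 10 (8.55%, 4.17 to 15.2) and 19 (15.6%, 9.64 to 23.2). Both groups of genes were found in 2 and 5 cells, and neither in 76 and 80. The differences were in opposite directions, and after thinning the pairs of intervals overlap. Unthinned, the dendritic genes alone were found in 47.0% (37.7 to 56.5) and 27.8% (20.2 to 36.5) of members and the monocyte genes alone in 9.40% (4.79 to 16.2) and 23.8% (16.7 to 32.2). Those pairs of intervals do not overlap, but they compare libraries of different depth per member (medians of 5672 and 4630.5 UMIs). In T cells the background for Ly6c2 is no guide, since T cells express it (19.6% and 22.9% with a UMI after thinning). Zbtb46 was found in 5.56% and 6.43% of thinned T cells, against 12.8% and 7.38% of members. Flt3 was found in 0.501% and 0.525% of thinned T cells, against 14.5% and 13.1% of members.

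Comparing the classes with each other, 21 of 1454 genes (1.44%) were at least 2-fold higher on the dendritic side in both libraries and 29 (1.99%) lower. On the dendritic side, Plet1 stood at 3275 against 748 CPM in wt and 2209 against 461 in the library labelled Lcn2-ko. Tbc1d4 stood at 313 against 46.8 and 349.9 against 24.3 CPM. Itgae, which encodes CD103, stood at 513 against 187 CPM in wt and at 299.9 CPM against 0 UMIs in the other library, which allows up to 3. Septin3, Nr4a3 and the replication genes Pcna and Mcm4 were also higher there. Lyz2 was the gene furthest to the monocyte side, at 64.9 against 444 and 70.0 against 1371 CPM. Tgfbi, a matrix protein of macrophages, stood at 212 against 1169 and 499.8 against 1371 CPM. Tnf, Cxcl10, Ccl6, Irf1 and Sdc4 shared that side. These classes rest on as few as 10 cells.

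Dividing cells were a minority of members. At least 2 UMIs over Mki67, Top2a, Birc5, Ube2c and Cdk1 were found in 16 wt members (13.7%) and 9 of the library labelled Lcn2-ko (7.38%) after thinning. Y-linked UMIs without Xist were found in 38.5% and 33.6% of thinned members, and Xist alone in 1 and 0 cells. Unthinned, the Y-linked share was 58.1% and 60.3%. Male marrow in a female host makes a Y-linked UMI a sign of a donor cell, and cells without either gene cannot be assigned.

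Between the libraries, 51 of 3402 genes (1.5%) were at least 2-fold higher in members of the library labelled Lcn2-ko and 36 (1.06%) were at least 2-fold lower. To be counted, a gene needed 50 CPM in at least 1 of the libraries and a total of 50 UMIs. The median log2 ratio over all of them was 0.02. Each value is 1 library against 1 other, so the spread between animals is unknown.

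**Figure D3:**
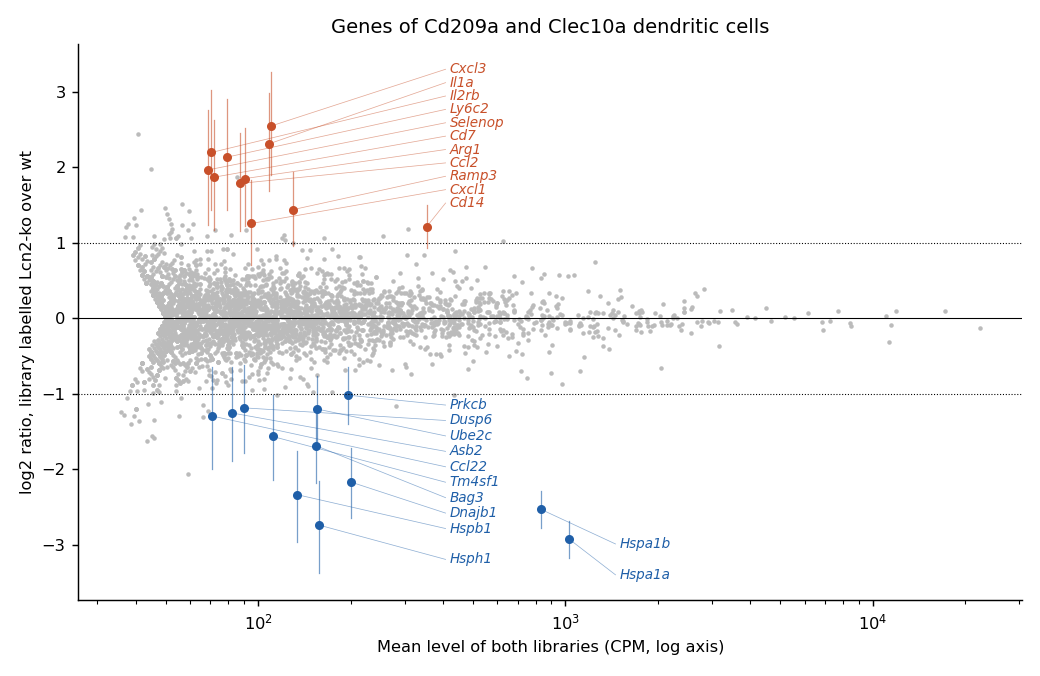
Each point is a gene in the members, by its mean level in both libraries (CPM, log axis) and its log2 ratio of the library labelled Lcn2-ko over wt; 23 named genes are coloured with 95% counting intervals and dotted lines mark 2-fold. Hspa1a and Hspa1b stand apart below at high level, while the named genes above are mostly near 100 CPM, Cd14 being the most abundant.

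Among the genes named by rank between the libraries, the lowest ratios were those of inducible heat shock genes. The products of these genes are chaperones that refold damaged proteins, and heat and other stress are known to switch the genes on. Hspa1a, which encodes an inducible HSP70, gave 1296 UMIs in wt members and 157 in the others, or 1817 and 239 CPM (log2 -2.93, -3.17 to -2.69). Hspa1b, its near-identical copy, stood at 1416 and 245 CPM (log2 -2.53), and how reads were split between them is uncertain. Hsph1, an HSP110, stood at 275 and 41.1 CPM (log2 -2.74). The small chaperone gene Hspb1 stood at 223 and 44.2 CPM (log2 -2.34). The HSP40 cochaperone Dnajb1 stood at 329 and 73.1 CPM (log2 -2.17), and the cochaperone Bag3 at 236 and 73.1 (log2 -1.69). Of 13 measured heat shock genes, 8 were at least 1.5-fold lower and 0 higher, with a median log2 ratio of -0.87. Over all 6055 genes on the same floor (20 CPM in at least 1 library and a total of 20 UMIs), 10.9% were at least 1.5-fold higher and 10.3% lower, with a median of 0.01. Members of that list expressed without stress were closer to equal, such as Hspa8 (1352 and 945 CPM, log2 -0.52) and Hspa5 of the endoplasmic reticulum (2002 and 1777 CPM, log2 -0.17).

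Start regions of 3 of these genes are shown because the genes were lower together and hold the string read by heat shock factors. They are RefSeq windows of GRCm38.p6 on the same limits as above: Hspa1a at chr17:34972107-34972406 (minus strand), Hsph1 at chr5:149636287-149636586 (minus strand) and Hspb1 at chr5:135887669-135887968 (plus strand). Capitals mark GAANNTTC or TTCNNGAA, in which N is any base, with both strands read and overlapping matches merged. These letters occurred in 8 of 10 heat shock genes with an entry, without Dnajb1 and Hspa5, and in 15.1% of 32851 promoters (4946). Here too a listed gene counted if any of its entries matched, so the shares are not on the same basis. A match says nothing of binding in these cells.
Hspa1a: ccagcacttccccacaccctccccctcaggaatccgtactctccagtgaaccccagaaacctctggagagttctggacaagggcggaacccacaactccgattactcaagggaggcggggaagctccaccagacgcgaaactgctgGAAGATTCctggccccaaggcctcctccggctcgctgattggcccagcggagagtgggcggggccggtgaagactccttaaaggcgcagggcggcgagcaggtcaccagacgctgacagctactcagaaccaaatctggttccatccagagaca
Hsph1: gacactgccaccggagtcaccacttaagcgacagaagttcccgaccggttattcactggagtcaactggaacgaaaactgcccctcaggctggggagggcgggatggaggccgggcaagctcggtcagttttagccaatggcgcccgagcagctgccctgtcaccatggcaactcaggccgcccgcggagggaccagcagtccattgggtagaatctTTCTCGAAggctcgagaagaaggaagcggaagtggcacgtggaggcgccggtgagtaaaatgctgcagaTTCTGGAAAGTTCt
Hspb1: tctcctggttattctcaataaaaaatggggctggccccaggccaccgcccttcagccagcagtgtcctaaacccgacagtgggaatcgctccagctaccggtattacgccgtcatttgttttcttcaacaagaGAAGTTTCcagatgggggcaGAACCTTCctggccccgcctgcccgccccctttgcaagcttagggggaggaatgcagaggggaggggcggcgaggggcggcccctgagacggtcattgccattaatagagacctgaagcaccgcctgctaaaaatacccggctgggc

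With the lectin limit lowered to 1 UMI, Hspb1 (log2 -0.73), Dnajb1 (-0.54) and Bag3 (-0.88) were no longer 2-fold lower. Without the top cell of each gene in each library, Hspb1 was at -1.56 and Dnajb1 at -3.00. The 6 genes named above, summed, were uneven from cell to cell. They were picked for the sum after their values were seen. Per 10000 UMIs of a cell the median was 4.06 in wt members and 2.41 in the others, with highest cells at 711 and 115. At least 10 were found in 35 of 117 wt members (29.9%) and 18 of the 126 others (14.3%), and none in 20 (17.1%) and 45 (35.7%). These shares are not matched for depth, and wt members were the deeper ones, with a median of 5672 UMIs against 4630.5. After thinning to 2000 UMIs, none were found in 48 of 117 wt members (41.03%) and 69 of the 122 others (56.6%), and at least 2 UMIs in 47 (40.2%) and 30 (24.6%).

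It was not limited to the members. The summed log2 ratio was -2.59 (-2.73 to -2.45) in members, -1.20 in the Xcr1 gate, -0.40 in the Ccr7 gate, 0.14 (-0.29 to 0.58) in monocytes, -1.36 in T cells and -1.01 over all other kept cells. In wt the members stood at 4296 CPM, below the Xcr1 gate at 5187. In the library labelled Lcn2-ko they stood at 716 CPM, below that gate at 2252. Within the members, Hspa1a differed in the same direction in cells with Cd209a and no Mgl2 (log2 -3.84), with both (-2.80), with Mgl2 and no Cd209a (-2.06), with dendritic genes only (-3.10) and with monocyte genes only (-2.55). Hspa1b and Dnajb1 were also lower in each of these classes. Hsph1 was at log2 -0.63 (-1.80 to 0.43) in cells with both lectins. Hspb1 gave 2 UMIs in each library in cells with dendritic genes only (log2 0.76, -3.03 to 4.55). Immediate-early genes, which many stimuli switch on quickly, had 2 of 19 measured lower (Jun, 1117 and 673 CPM, and Egr1, 370.1 and 236) and 0 higher, with a median of -0.23. Their part in the heat shock result was not tested.

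**Figure D4:**
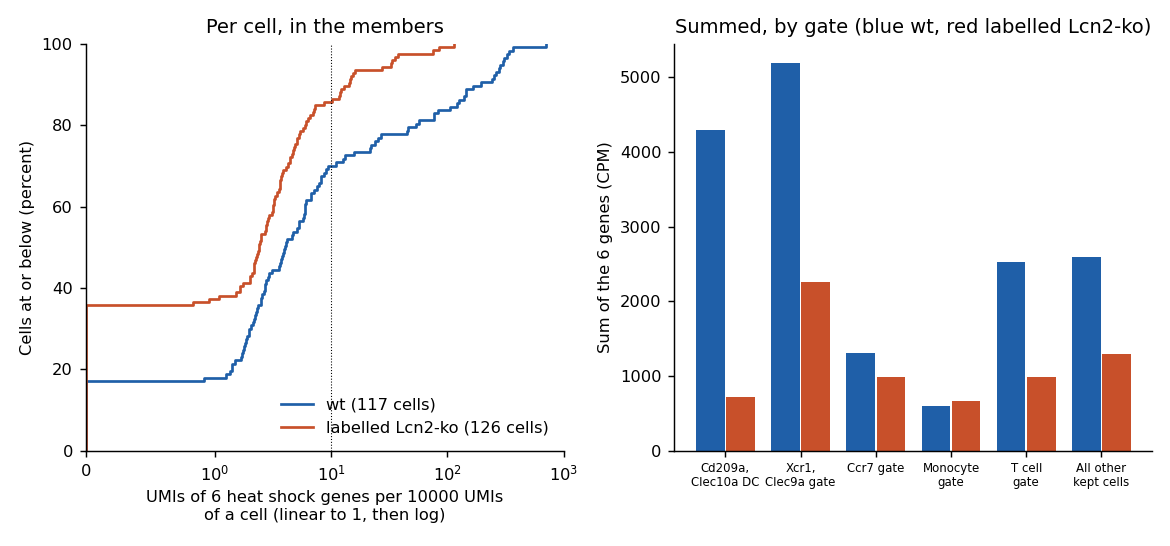
The left panel gives the cumulative percent of members (y) by their UMIs of 6 heat shock genes per 10000 UMIs (x, linear to 1, then log), and the right panel the summed level of these genes by gate in CPM, blue for wt and red for the library labelled Lcn2-ko. The wt curve ends in a tail up to 711, and the red bar is lower than the blue one in every gate except the monocytes.

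Several monocyte genes were at higher levels in members of the library labelled Lcn2-ko. Ly6c2, a surface protein of inflammatory monocytes, stood at 29.4 and 129 CPM (log2 2.14, 1.43 to 2.90) and was found in 12 and 26 cells. With at least 1 lectin UMI it was no longer 2-fold higher. Ly6c2 was also found in 19.6% and 22.9% of thinned T cells, so it is not a gene of monocytes alone. Cd14, a receptor that binds bacterial lipopolysaccharide, stood at 213 and 493 CPM (log2 1.21, 0.93 to 1.5) and was found in 39 and 45 cells. Of 13 measured monocyte genes, 7 were at least 1.5-fold higher and 0 lower, with a median of 0.67. All genes on that floor gave 10.9% higher and 10.3% lower. Ccr2 stood at 79.9 and 164 CPM and Lyz2 at 163 and 347 CPM, and Plac8 (858 and 1274 CPM, log2 0.57) and Csf1r (log2 0.34) stayed under that limit. Hp was at 0 UMIs in both libraries, and the summed level of the list was 3083 and 4246 CPM.

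Part of that group rested on a minority of cells. Without the members that held a UMI of Fcgr1 or Ly6c2, which left 94 and 80 cells, the median of the monocyte genes was 0.45, that of cytokines 0.089 and that of chemokines -0.12. Cd14 then had a log2 ratio of 0.45 (and 0.32 with at least 1 lectin UMI, 0.78 after thinning, 0.94 as a mean of per-cell CPM and 0.95 without members holding T and NK cell UMIs, all under 2-fold), Cxcl3 one of 0.041 and Il1a one of -0.25. In the cells with monocyte genes only (10 and 19), Cd14 stood at 444 and 1614 CPM and Lyz2 at 444 and 1371. This subset was chosen after the data were seen, and the genes that removed cells are themselves in the list of monocyte genes.

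Of 13 measured cytokines, 8 were at least 1.5-fold higher and 0 lower (median 0.67), beside 10.9% and 10.3% of all genes. Il1a, for interleukin 1 alpha, stood at 36.5 and 181 CPM (log2 2.31), and 1 cell held 49 of its 119 UMIs. Il6 gave 8 and 41 UMIs (log2 2.48), 17 of them in 1 cell. Il23a gave 4 and 26 UMIs (log2 2.82). Il1rn, the antagonist of the interleukin 1 receptor, stood at 154 and 271 CPM (log2 0.81), and Vegfa, the vessel growth factor, at 121 and 227 (log2 0.91). Il1b, the most abundant, was nearly level (log2 0.14), as was Tnf at 125 and 107 CPM (log2 -0.23).

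Chemokines split into higher and lower groups. Of 17 measured, 9 were at least 1.5-fold higher and 4 lower (median 0.59), beside 10.9% and 10.3% of all genes. The ligands that draw neutrophils were higher: Cxcl3 at 32.2 and 189 CPM (log2 2.55), with 66 of its 124 UMIs in 1 cell, Cxcl1 at 56.1 and 134 (log2 1.26) and Cxcl2 at 931 and 1564 (log2 0.75). For Cxcl1, 1 cell in each library held 20 of 40 and 40 of 88 UMIs. Its ratio was under 2-fold after thinning, as a mean of per-cell CPM and with at least 3 lectin UMIs. Without members holding T and NK cell UMIs it turned direction. Ccl2, the ligand of CCR2, stood at 39.3 and 135 CPM (log2 1.79), with 51 of 89 UMIs in 1 cell. Without the top cell of each gene, Ccl2 was no longer 2-fold higher. The lower ones were the CCR4 ligands Ccl22 (101 and 41.1 CPM, log2 -1.30) and Ccl17 (443 and 292, log2 -0.60), together with Ccl4 (885 and 547, log2 -0.69) and Ccl5 (129 and 73.1, log2 -0.82). In cells with Mgl2 and no Cd209a, Ccl22 (log2 0.06) and Ccl17 (log2 0.08) were nearly level. In cells with Cd209a and no Mgl2, Ccl22 was at -2.89 and Ccl17 at 0.93 (-0.48 to 2.57). In cells with both they were at -1.58 and -0.62. With at least 3 lectin UMIs, Ccl22 was no longer 2-fold lower.

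Single cells also weighed in other named genes. Arg1, for arginase 1, stood at 39.3 and 142 CPM (log2 1.85) and was found in 5 and 12 cells. Selenop, a selenium carrier, stood at 28.0 and 110 CPM (log2 1.97) with 27 of 72 UMIs in 1 cell. Il2rb, a chain of the receptors of interleukins 2 and 15, stood at 25.2 and 116 CPM (log2 2.20) with 28 of 76 UMIs in 1 cell. Cd7 stood at 30.8 and 113 CPM (log2 1.87) and Ramp3, which pairs with receptors of the calcitonin family, at 70.1 and 190.3 (log2 1.44), each spread over more than 30 cells in the library labelled Lcn2-ko (32 and 48). Of 14 measured macrophage genes, 5 were at least 1.5-fold higher, among them Nos2 (14.02 and 50.2 CPM, log2 1.84) and the mannose receptor Mrc1 (79.9 and 137 CPM, log2 0.78), and 2 lower, Adgre1 (36.5 and 6.09 CPM, log2 -2.58) and Cd72 (log2 -1.11). The median of the list was 0.29, and all genes on that floor gave 10.9% higher and 10.3% lower.

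Markers of other cell types moved beside these, while all genes on the floor of the lists gave 10.9% higher and 10.3% lower. T cell genes had 3 of 5 measured higher and 0 lower, with summed levels of 149 and 335 CPM and 0 of 12 at 0 UMIs. NK cell genes also had 3 of 4 higher, summed at 123 and 277 CPM, with Ncr1 and Prf1 at 0 UMIs in wt and at 3 and 10 in the other library, and Gzma at 2 and 42 UMIs, 33 of them in 1 cell. Plasmacytoid dendritic cell genes had 3 of 4 higher, summed at 182 and 419 CPM, with 5 of 9 at 0 UMIs in wt and 1 in the other library, and Siglech at 1 and 19 UMIs, 13 of them in 1 cell. At least 3 UMIs of T and NK cell genes were found in 29 of 117 (24.8%) and 40 of 126 (31.7%) members. Without those cells (88 and 86 left), the count of genes at least 2-fold higher was 32, of which 20 were among the 51, and Cxcl1 (-0.020), Tm4sf1 (0.17) and Ube2c (0.35) turned direction. The part of attached or doublet cells in the other differences was not tested further. Marker genes of macrophages had 1 of 2 measured higher and 0 lower, summed at 81.3 and 99.0 CPM. Genes of tumour and stromal cells summed to 899 and 758 CPM, of neutrophils to 2170.3 and 2434 (mostly Il1r2), and of B cells to 30.8 and 47.2, with 5 of 8 B cell genes at 0 UMIs in each library.

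**Figure D5:**
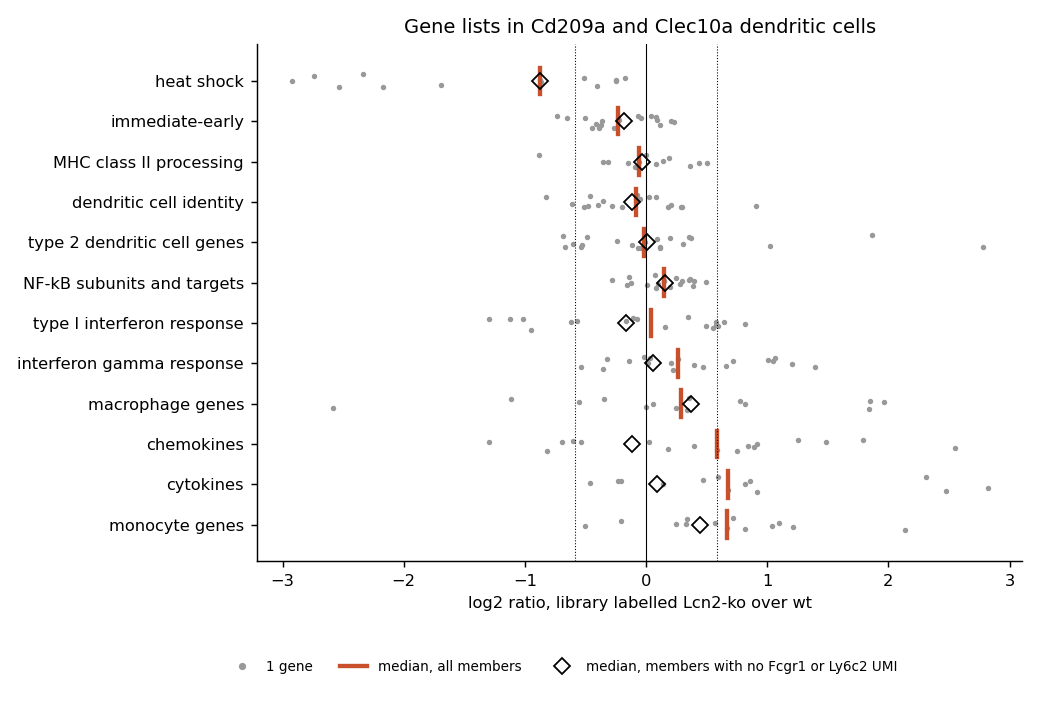
Each grey point is a measured gene of a list (rows) by its log2 ratio of the library labelled Lcn2-ko over wt in members, red bars are list medians, diamonds the medians over members with no UMI of Fcgr1 or Ly6c2, and dotted lines mark 1.5-fold. The heat shock median is -0.87 in all members, and the medians of monocyte genes, cytokines and chemokines go from 0.67, 0.67 and 0.59 in all members to 0.45, 0.089 and -0.12 without those cells.

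The genes that define the type stayed close to level, beside 10.9% of all genes at least 1.5-fold higher and 10.3% lower. Of 19 measured dendritic cell identity genes, 1 was at least 1.5-fold higher (Irf8, 102 and 192 CPM, log2 0.91) and 2 lower (Zbtb46, log2 -0.83, and Cd24a, log2 -0.61), with a median of -0.09. Of 22 measured genes of type 2 dendritic cells, 3 were higher (Cd7, Cx3cr1 and Clec4a1) and 3 lower (Ccl17, Ear2 and Mmp12), with a median of -0.01. Mmp12 stood at 594 and 373 CPM and was found in 44.4% and 27.9% of thinned members. Class II processing had 0 of 15 higher and 1 lower (H2-Oa, 58.9 and 32.0 CPM), with a median of -0.05. H2-DMb2 and Kmo, the markers outside the rule's sums, had log2 ratios of -0.07 each. Clec10a, a rule gene, stood apart from Cd209a and Mgl2 with a log2 ratio of 1.19 (0.89 to 1.5), against 0.33 and -0.10, and it was higher in the classes with Cd209a only (log2 1.04), with both (2.15) and with Mgl2 only (1.34). In the cells with Fcgr1 or Ly6c2 only it was at 491 and 339.8 CPM (log2 -0.53, -1.40 to 0.36). It is 1 of the genes summed by the rule. Of 9 measured genes listed for the type 1 lineage, 2 were higher and 3 lower (median -0.36), the lower ones with Plet1 at 2503 and 1588 CPM (log2 -0.66) and Itgae at 393 and 236 (log2 -0.73).

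Among interferon genes, of 18 measured in the type I response, 3 were at least 1.5-fold higher and 5 lower (median 0.042). The lower ones included Isg15, a ubiquitin-like modifier (154 and 76.1 CPM, log2 -1.02), and Ifit3 (log2 -1.30), Ifit2 (-1.12) and Ifit1 (-0.95). Of 19 measured in the interferon gamma response, 7 were higher and 0 lower (median 0.26), among them the guanylate-binding gene Gbp2 (107 and 222 CPM, log2 1.06) and Iigp1 (log2 1.39). All genes on that floor gave 10.9% higher and 10.3% lower. Cxcl9, also a target of interferon gamma, had a log2 ratio of -0.54. Without members holding a UMI of Fcgr1 or Ly6c2, the type I median was -0.16 and the interferon gamma median 0.055.

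Other lists showed fewer differences, and all genes on the same floor gave 10.9% at least 1.5-fold higher and 10.3% lower. NF-kB subunits and targets had 0 of 19 higher and 0 lower. In the kynurenine pathway, 0 of 5 measured genes were higher and 1 lower (Haao). Iron handling, which lipocalin 2 is known to touch, had 1 of 10 higher (Ireb2) and 2 lower, counts near the shares of all genes. The lower ones were Tfrc for the transferrin receptor (57.5 and 33.5 CPM, log2 -0.78) and Slc11a2 (log2 -1.14). Fth1, the ferritin heavy chain, was level at 7471 and 7965 CPM. Cell cycle genes had 2 of 20 higher (Mcm2 and Mcm6) and 2 lower (Ube2c, 217 and 94.4 CPM, log2 -1.20, and Cdk1). Tm4sf1 (log2 -1.57), Asb2 (log2 -1.26), Dusp6, a phosphatase of ERK kinases (log2 -1.19), and Prkcb, protein kinase C beta (log2 -1.02), were the remaining named genes at lower level. Of Tm4sf1's 119 wt UMIs, 83 were in 1 cell, and without the top cell it was no longer 2-fold lower.

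The neighbourhood of Lcn2 held 1 gene with a large ratio. 1110008P14Rik, on chromosome 2 (32377097 to 32381938, minus strand, mm10) beside Lcn2 (32384633 to 32388252, minus strand), gave 5 UMIs in 5 wt members and 26 UMIs in 24 of the others (log2 2.5, 1.09 to 4.23). It overlaps Ciz1 on the other strand (20 and 11 UMIs), and whether the counting used strand is not given in the sources used here. The log2 ratio was 1.70 in the Xcr1 gate, 1.49 in the Ccr7 gate, 2.59 in monocytes and 0.39 in T cells. In members with Y-linked and no Xist UMIs it gave 4 and 17 UMIs. Of 23 genes within 5 Mb of Lcn2 on the floor of 50 CPM and 50 UMIs, 0 were 2-fold higher and 0 lower. Slc27a4, which lies farther off on the same chromosome (29802634 to 29817522, plus strand), gave 4 and 9 UMIs (log2 1.29, -0.55 to 3.44), a difference within its counting interval.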

How the data were processed

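Single-cell RNA libraries of sorted CD45+ tumour cells were read, 1 per genotype label. The authors deposited 1 matrix per library with raw UMI counts of 31253 genes in each barcode. Cell Ranger and mm10 are named in the submitters' processing notes, with no version given. The authors' own cell filters are not given in the sources used here. No barcode had fewer than 501 UMIs.

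Barcodes were kept from 200 genes upward and up to 20% mitochondrial UMIs (7712 of 7974 wt barcodes and 7547 of 7788 of the library labelled Lcn2-ko). Gates were limits on UMIs. The members and the gene lists were chosen with earlier results of these data known. Doublets were not removed. Leaving out the highest 4% of Scrublet scores (scanpy 1.11.5, expected rate 0.06) was an alternative, which removed 4 and 6 members. Each gate's UMIs were added up by gene and scaled to CPM. Cells are not replicates, so no test was run. Intervals are exact Poisson, Clopper-Pearson, Newcombe or conditional binomial at 95%, and cover counting error only. A count of 0 was read as allowing 3. Shares and classes were read after thinning each cell to 2000 UMIs, which left out 4 members of the library labelled Lcn2-ko and 0 of wt. Levels of classes used full counts.

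A gene counted as 2-fold different needed 50 CPM in either library or gate and 50 UMIs over both. Lists used 1.5-fold, 20 CPM and 20 UMIs between the libraries. A gene can pass such a floor through the library where it is high, so counts of lists stand beside those of all genes. Against gates and between classes of members, the floor was 100 CPM on either side in both libraries, without a floor of 50 UMIs. There, both libraries had to pass 2-fold. Named genes were the 15 highest ratios to all other cells, the 6 highest and 6 lowest against each gate and the 12 highest and 12 lowest between libraries, at 100 CPM or more, plus the extreme, most abundant and accounting genes of each list, the rule genes and genes near Lcn2. Mitochondrial, ribosomal, receptor segment, predicted, rule and sex-linked genes were left out of the ranks. Some items are not reported here, and the lists, the named genes and the split of members by monocyte genes were made without them. Positions came from GENCODE for mm10 (31107 of 31253 gene identifiers matched) and promoters from RefSeq for GRCm38.p6. Calculations used Python 3.11.15, numpy 2.4.6 and scipy 1.17.1, and were tested on simulated data.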

Additional observations from a re-analysis of the deposited data

How the results depend on the processing

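The difference in the members' share of kept cells stayed between 0.067 and 0.216 percentage points under the other lectin, class II, C1q, mitochondrial, gene and doublet limits, while the members ran from 96 and 99 (C1q at 0) to 155 and 168 (at least 1 lectin UMI). Of 553 alternative values in all, 464 stayed within their limits, 81 moved and 8 turned direction. The 51 genes at least 2-fold higher became 20 after thinning to 2000 UMIs (8 shared, 1649 genes tested), 213 at a floor of 20 CPM and 20 UMIs, 22 at 100 CPM and 50 UMIs, 28 without members holding Fcgr1 or Ly6c2 UMIs (17 shared) and 32 without members holding at least 3 T and NK cell UMIs. The 36 lower genes became 22 with at least 1 lectin UMI, 22 after thinning (8 shared), 174 and 15 at those floors. The median of monocyte genes was 1.16 in members with Y-linked and no Xist UMIs. Without members holding Fcgr1 or Ly6c2 UMIs the median of chemokines (-0.12) turned direction, as did Il1a (-0.25). Without members holding T and NK cell UMIs, Cxcl1 (-0.020), Tm4sf1 (0.17) and Ube2c (0.35) turned. With at least 1 lectin UMI, Tm4sf1 (0.35), Ube2c (0.039) and Dusp6 (0.40) turned. The causes were not tested. The last 3 subsets of members (Fcgr1 or Ly6c2, T and NK cell, and Y-linked UMIs) were chosen after seeing the data, as were the genes of the monocyte side of the second split and reading the classes without thinning and the heat shock sums with it.

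Of the 23 genes named between the libraries, 23 stayed at least 2-fold in the same direction under median of ratios scaling, which shifts all ratios by 0.04, 22 without the highest doublet scores, 21 without the top cell of each gene and 13 with at least 1 lectin UMI. No paired analysis was possible because each genotype label had 1 library. Low depth limits genes with few UMIs, and 1 library per label leaves the spread between animals unknown.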
